A study of Mus musculus with 10 samples.

Results

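The genes described here are 8 members of the ETS family that act in the vascular and blood lineage: Etv2, Fli1, Erg, Ets1, Ets2, Elk3, Etv6 and Elf1. They were chosen by symbol, from knowledge of the family and not by a threshold on their levels, but with earlier results of these data known. Shares of all tested genes given below are thus a background and not a test of the set. All 8 are among the 15686 genes of the deposited matrix of stage means. They are also among the 22596 of 55487 annotated genes that passed the filter on low counts. The question was how expression passes from Etv2 to the later ETS factors as mouse embryonic stem cells (ES) become blood progenitors.

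Nuclear RNA was sequenced from HM-1 mouse ES cells and from 4 cell stages derived from them in serum culture, with 2 libraries per stage and 10 in all. All stages come from this 1 ES cell line, no gene was perturbed, and the stages differ only in culture and sort. Hemangioblast cells (HB) were FLK1+ cells taken from embryoid bodies after 3 d. Cells grown on from HB in blast culture with VEGF and IL-6 were sorted as hemogenic endothelium 1 (HE1, KIT+ TIE2+ CD41-), hemogenic endothelium 2 (HE2, KIT+ TIE2+ CD41+) and hematopoietic progenitors (HP, KIT+ TIE2- CD41+), so the last 3 stages are fractions of 1 kind of culture, split by surface protein.

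ETS factors share a winged helix-turn-helix domain that reads a GGAA core in DNA. ETV2 is a pioneer factor that is switched on briefly in mesoderm and opens the endothelial and blood program. FLI1 and ERG, close relatives of each other, maintain that program afterwards and bind with TAL1, LYL1, LMO2, GATA2 and RUNX1 in blood stem and progenitor cells. ETS1 and ETS2 are effectors of RAS and MAPK signaling, ELK3 is a ternary complex factor that can repress, ETV6 is a repressor needed for blood stem cells in the bone marrow, and ELF1 activates endothelial and blood genes.

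The promoter windows of 4 members with different profiles over the stages are shown. Each of these factors could in principle bind a GGAA core in the promoter of another. Each is the 250 bases before the RefSeq transcription start in GRCm38.p6, read 5′ to 3′ on the strand of the gene, with every GGAA core in capitals (written TTCC where it lies on the other strand). Etv2 is from chr7:30635853-30636102 (minus strand), Erg from chr16:95586594-95586843 (minus), Elk3 from chr10:93311160-93311409 (minus) and Etv6 from chr6:134035450-134035699 (plus).
Etv2: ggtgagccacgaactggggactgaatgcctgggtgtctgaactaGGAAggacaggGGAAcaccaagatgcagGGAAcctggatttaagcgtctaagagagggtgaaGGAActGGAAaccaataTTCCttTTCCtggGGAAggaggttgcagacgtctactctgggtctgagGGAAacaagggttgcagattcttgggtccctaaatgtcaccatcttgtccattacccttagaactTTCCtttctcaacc
Erg: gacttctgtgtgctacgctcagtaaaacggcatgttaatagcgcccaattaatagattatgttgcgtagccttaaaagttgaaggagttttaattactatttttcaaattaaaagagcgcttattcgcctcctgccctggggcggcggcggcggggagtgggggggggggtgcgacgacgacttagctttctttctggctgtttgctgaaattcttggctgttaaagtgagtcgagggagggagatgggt
Elk3: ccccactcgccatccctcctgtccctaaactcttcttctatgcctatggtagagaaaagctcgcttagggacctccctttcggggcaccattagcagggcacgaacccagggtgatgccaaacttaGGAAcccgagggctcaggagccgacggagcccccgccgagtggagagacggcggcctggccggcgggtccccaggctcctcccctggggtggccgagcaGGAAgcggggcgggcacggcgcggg
Etv6: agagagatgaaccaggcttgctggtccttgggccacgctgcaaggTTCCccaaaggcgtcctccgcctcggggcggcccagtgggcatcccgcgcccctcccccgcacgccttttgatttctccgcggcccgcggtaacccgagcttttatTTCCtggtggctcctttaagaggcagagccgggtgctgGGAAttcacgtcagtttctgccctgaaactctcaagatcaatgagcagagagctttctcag
The Etv2 window held 10 cores, Etv6 held 3, Elk3 held 2 and this Erg window held 0. Across all 32851 RefSeq windows cut the same way, the median was 3 cores, 93.4% held at least 1 and 0.192% held 10 or more. In all, 6 of the 8 members had a window in the table, with 9 windows between them. Erg has 2 further starts inside the gene, with 4 and 2 cores, Ets2 had 1 core, and the Elf1 windows had 2 and 0. The longer site CCGGAAGT, searched on both strands and containing the core, was in none of the 9 windows and in 2.88% of all windows. GATA, E-box and RUNX sites were searched too. The only match was 1 GATA site, in the Erg window with 2 cores, and 9.99% of all windows held that site. A match is a description of the letters only, and binding was not measured here.

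The genes lie in 2 divergent pairs and 4 single loci (mm10). Fli1 (ENSMUSG00000016087, chr9:32422204-32542861, minus strand) and Ets1 (ENSMUSG00000032035, chr9:32636221-32757820, plus) have starts 93.4 kb apart. Erg (ENSMUSG00000040732, chr16:95359169-95586593, minus) and Ets2 (ENSMUSG00000022895, chr16:95702075-95721051, plus) have starts 115 kb apart. Etv2 lies at chr7:30633616-30635852 (minus), Elk3 at chr10:93247414-93311135 (minus), Etv6 at chr6:134035700-134270158 (plus) and Elf1 at chr14:79481194-79582494 (plus). Exon length per gene ranged from 1048 bases for Etv2 to 8476 for Ets1, so levels of members are compared with each other per kb of exon except where said, and sums over marker genes, given in CPM, are compared only between libraries.

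Libraries held 24920434 to 58782055 counts, and levels are given as CPM, counts scaled to a common library size by TMM, with a mean ± SD of 2 libraries. A floor of 3 counts corresponds to 0.0532 to 0.126 CPM and covers counting error only. Transcripts of the sort proteins followed the sorts in part: Kdr (FLK1) rose in HB, Tek (TIE2) had its highest mean in HE1 and Itga2b (CD41) rose from HE1 to HE2. Itga2b had however already risen in the CD41- HE1 cells, from 41.2 to 177 CPM (log2 fold change 2.10). Kit was at 168 CPM in ES, 71.3 (HB), 110 (HE1), 320 in HE2 and 307 (HP), and in the KIT+ HE1 cells it was not called higher than in HB (log2 fold change 0.62, adjusted p = 0.177). That rests on HE1 replicate 2: without it Kit was called higher (1.04, adjusted p = 0.0369), and without HE1 replicate 1 it stood at -0.01. The 2 HE1 libraries had the lowest Pearson r of log2 CPM across genes (0.967, against 0.983 to 0.994 within the other stages), while by chi-square per degree of freedom the HE2 libraries (60.9) differed more than those of HE1 (44.5). HE1 replicate 2 held a sum of 5 ES cell markers of 66.95 CPM against 6.31 CPM in HE1 replicate 1, and a larger share of counts in TEC genes, transcripts that the annotation marks as still to be tested by experiment (0.627% against 0.316%). For members and most lists, calls or signs that changed without 1 HE1 library are given beside the result or in the closing section.

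Etv2 was a gene of 1 stage. Its level was 0.639 and 0.545 CPM in the ES libraries, 55.6 and 69.5 (HB), 3.79 and 5.25 (HE1), 5.73 and 3.40 (HE2), and 1.94 and 2.29 (HP). Both HB libraries stood more than 9-fold above every other library. The level rose 104-fold from ES to HB (log2 fold change 6.70, SE 0.35; adjusted p = 7.90e-07) and fell by 3.79 on the log2 scale from HB to HE1 (SE 0.29; adjusted p = 1.83e-05), by the quasi-likelihood test of edgeR. All adjusted p-values here are from that fit, adjusted over every tested gene by the Benjamini-Hochberg method, unless another tool is named. It did not return to the ES level: the lowest HP library, with 85 counts, was above both ES libraries, with 36 and 19 counts.

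**Figure D1:**
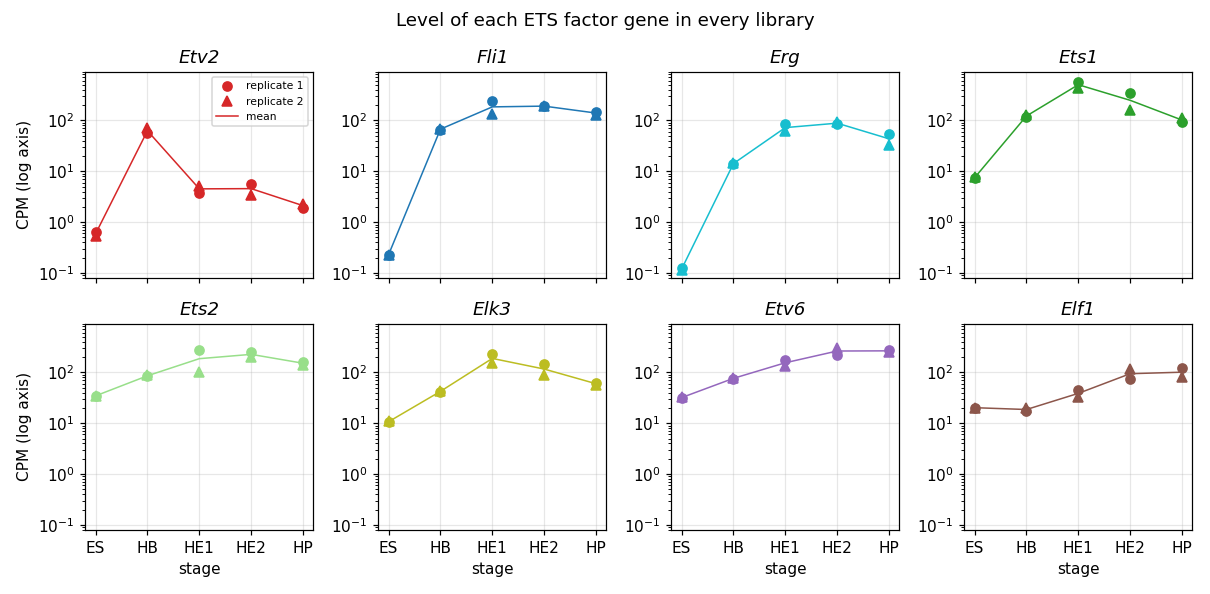
Level of each of the 8 genes in CPM on a log axis, by stage, with circles for replicate 1, triangles for replicate 2 and a line through the means. Etv2 peaks in HB at 62.5 CPM, Ets1 and Elk3 peak in HE1, and Etv6 and Elf1 are highest in HE2 and HP.

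Fli1 and Erg, the FLI1/ERG subfamily, were almost silent in ES and on in HB. Fli1 had 13 and 8 counts in the ES libraries (0.231 and 0.230 CPM) and then 65.4 and 69.3 CPM in HB, 236 and 133 (HE1), 191.1 and 190.8 (HE2), and 148 and 131 (HP). Erg had 7 and 4 counts in ES (0.124 and 0.115 CPM) and then 14.1 and 14.3 CPM in HB, 83.4 and 61.1 (HE1), 83.5 and 93.0 (HE2), and 53.8 and 33.2 (HP). For both genes every later library lay above every HB library. The order of the stages was HE2, HE1, HP, HB and ES for both. For Fli1 the HE1 libraries spanned those of HE2 and overlapped those of HP, while both HE2 libraries lay above both HP libraries. For Erg HE2 and HE1 stood apart only by 0.14 CPM. Per kb of exon the Fli1 level was 4.63 and 4.81 times that of Erg in HB, 2.81 and 2.17 times in HE1, 2.27 and 2.04 times in HE2, and 2.74 and 3.91 times in HP, so the Fli1 excess was highest in both HB libraries.

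Ets1 and Elk3 peaked in HE1. Ets1 was at 7.27 and 7.66 CPM in ES, 114 and 130 (HB), 565 and 442 (HE1), 338 and 159 (HE2), and 92.5 and 111 (HP). Elk3 was at 10.5 and 10.9 CPM in ES, 40.7 and 43.8 (HB), 224 and 151 (HE1), 144 and 88.3 (HE2), and 62.3 and 57.0 (HP). In both genes the 2 HE1 libraries were the highest of the 10, and in both HE2 replicate 2 stood nearer to HP than did HE2 replicate 1. Ets2, in contrast, had no separate peak: its libraries read 34.6 and 34.4 CPM in ES, 83.4 and 87.5 (HB), 269.8 and 101 (HE1), 252 and 199 (HE2), and 162 and 140 (HP). Both HE2 libraries lay above both HP libraries, and the HE1 libraries span both stages, so the place of HE1 is not resolved.

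Etv6 and Elf1 were the members highest in HE2 and HP. Etv6 was at 31.6 and 32.1 CPM in ES, 75.3 and 76.9 (HB), 175 and 133 (HE1), 219 and 305 (HE2), and 279 and 249 (HP). Elf1 was the 1 member that did not rise in HB: it read 20.2 and 20.1 CPM in ES, 17.6 and 19.6 (HB), 44.8 and 32.4 (HE1), 73.6 and 114 (HE2), and 119 and 81.8 (HP). In both genes all HE2 and HP libraries lay above all earlier ones, and HE2 and HP overlapped.

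From ES to HB, 7 of the 8 members rose, none fell, and Elf1 did not pass (log2 fold change -0.12; adjusted p = 0.745). A gene is called when its adjusted p is under 0.05 and its change is at least 2-fold, and by that rule the background over the whole table was 11.5% higher and 17.3% lower in HB. The members' median log2 fold change was 3.01, against 0.00 for all tested genes. The largest was Fli1, at 288-fold (log2 fold change 8.17, SE 0.34; adjusted p = 3.85e-07), ahead of Erg at 114-fold and Etv2 at 104-fold. Ets1 rose 16.4-fold, Elk3 3.95-fold, Ets2 2.48-fold and Etv6 2.39-fold. Thus Fli1, Erg and Ets1 had already risen in the stage where Etv2 peaked. The ES and HB libraries did not overlap for any of the 8, Elf1 included, as for 78.7% of all tested genes.

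From HB to HE1, the hand-over, Etv2 fell and the other 7 members rose. Among all tested genes 12.7% were higher and 8.19% lower, and the median was 0.04 against 1.29 for the members. The sums of endothelial markers (251 and 206 CPM in HB, 3487 and 2027 in HE1), red cell markers (9.98 and 11.4, then 537 and 260) and smooth muscle markers (17.2 and 13.2, then 622 and 939) were higher in HE1 too, and their part in the members' rise was not tested. Erg rose 5.09-fold (log2 fold change 2.35, SE 0.24; adjusted p = 7.90e-05), Elk3 4.44-fold, Ets1 4.12-fold and Fli1 2.74-fold. Etv6 (2.02-fold), Elf1 (2.07-fold) and Ets2 (2.17-fold) passed the 2-fold limit narrowly. Without HE1 replicate 1, 4 members were called, with Ets2 at a log2 fold change of 0.19 (adjusted p = 0.389) and Fli1 at 0.94, under 2-fold, and without HE1 replicate 2 all 8 were. Without HB replicate 1 or without HB replicate 2, 5 members were called: Ets2, Etv6 and Elf1 dropped out. Without either ES library, which enters only through the shared spread and filter, 6 were called, with Etv6 and Elf1 just under 2-fold. The fall of Etv2 and the rises of Erg, Ets1 and Elk3 passed in every alternative at the 2-fold limit.

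**Figure D2:**
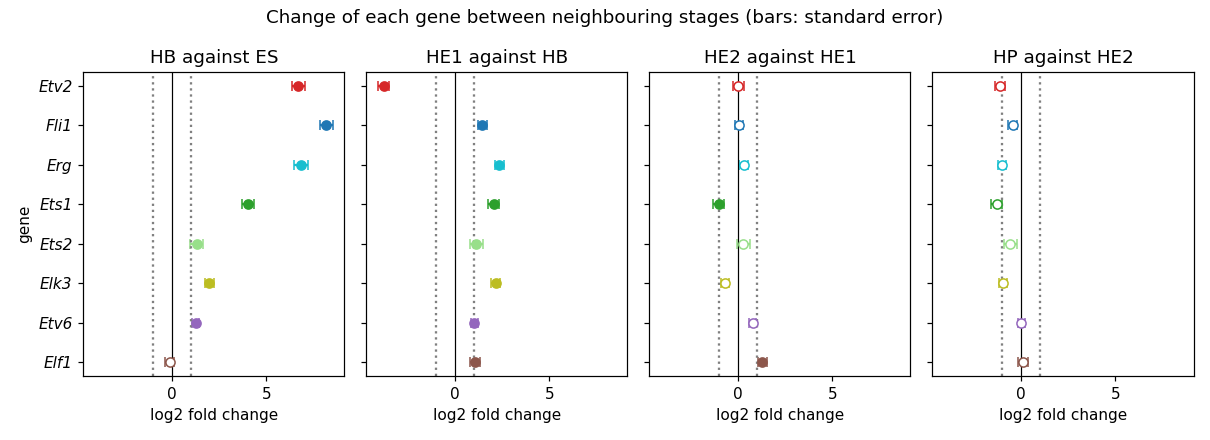
Log2 fold change of each gene (x axis, one scale for all panels) between neighboring stages, with bars of 1 standard error, filled points where the change was called and dotted lines at 2-fold. The first 2 panels hold most of the filled points, Etv2 changes side between them, and HP against HE2 has none.

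From HE1 to HE2, when CD41 appears at the surface, Elf1 rose 2.44-fold (log2 fold change 1.28, SE 0.25; adjusted p = 0.0136) and Ets1 fell by 1.02 (SE 0.29; adjusted p = 0.0441). The other 6 members were not called, where 3.26% of all tested genes were higher and 5.39% lower. Etv6 had an adjusted p of 0.0288 but was under 2-fold (log2 fold change 0.77), and Elk3 stood at -0.69 (adjusted p = 0.0700). Etv2 (0.01) and Fli1 (0.05) had the smallest differences, but their signs depended on the HE1 library left out. Without HE1 replicate 1 they stood at -0.18 and 0.54, and without HE1 replicate 2 at 0.27 and -0.31. Ets2, at 0.28, turned to -0.26 without HE1 replicate 2. The calls depended on single libraries. Elf1 was not called without HE1 replicate 2 (log2 fold change 1.07, adjusted p = 0.0877) or without HE2 replicate 2 (0.95, adjusted p = 0.106). Ets1 was not called when any single library of either stage was left out except HE2 replicate 1 (its log2 fold changes were then between -0.56 and -1.19), nor without any 1 library of the other stages, where it fell just under 2-fold or just past the p limit. Without HE2 replicate 1 the Ets1 difference was -1.65 (adjusted p = 0.00125), and Elk3 (-1.07) and Etv6 (1.01) were called too, giving 4 members. Without HE1 replicate 1, Ets2 (1.18) and Etv6 (1.01) were called with Elf1. With the replicate number as a block, Ets1 had an adjusted p of 0.0526.

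HP against HE2 gave no called member and no called gene: 0% were higher and 0% lower. Counting genes at p under 0.05 before adjustment gave 670 with a rise and 1113 with a fall, and 4 members were lower: Etv2 (log2 fold change -1.11), Erg (-1.02), Ets1 (-1.29) and Elk3 (-0.96). In 6 of the 8 members the HP and HE2 libraries did not overlap, where 28.8% of all tested genes did not, and the members' median was -0.77 against 0.01 for all tested genes. Other tools did make calls: limma-voom called 35 genes higher and 27 lower but no member, and DESeq2 called 108 higher and 193 lower, including Etv2, Erg and Ets1, all lower. Without HE2 replicate 2, Etv2, Ets1 and Elk3 were called lower. Etv6 and Elf1 differed by 0.01 and 0.10, with SE of 0.18 and 0.24.

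Across the wider step from HE1 to HP, Ets1 fell by 2.31 on the log2 scale (SE 0.30; adjusted p = 0.000686), Elk3 by 1.65 (adjusted p = 0.00109) and Etv2 by 1.10 (adjusted p = 0.0196), while Elf1 rose 2.61-fold (adjusted p = 0.00329). The background was 5.35% higher and 11.2% lower. Fli1 (-0.40) and Ets2 (-0.30) did not pass, Erg (-0.73, adjusted p = 0.0373) and Etv6 (0.78, adjusted p = 0.0132) were under 2-fold. The Etv2 call was lost in 4 of 18 alternatives. Among them were the fits without HE1 replicate 2 (-0.85) or HP replicate 1 (-0.97), and limma-voom (-1.11, adjusted p = 0.0601). Erg was called lower without HP replicate 1 (-1.11), and Etv6 was called higher without HE1 replicate 1 (1.02). Without HE1 replicate 1 the signs of Ets2 and Fli1 turned, to 0.61 and 0.09, both under 2-fold.

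HP against HB compares the end of the series with the Etv2 peak. Etv2 was lower by 4.89 on the log2 scale (adjusted p = 2.84e-06), and Elf1 (5.41-fold), Etv6 (3.47-fold), Erg (3.07-fold) and Fli1 (2.07-fold) were higher, against a background of 10.1% higher and 11.6% lower. Ets1 (-0.26, adjusted p = 0.535), Elk3 (0.50) and Ets2 (0.82, adjusted p = 0.0971) were not called. Ets1 and Elk3, which rose into HE1, had thus come back to within 1.5-fold of their HB level. Fli1 was under 2-fold without HB replicate 1 (0.98) or HP replicate 1 (0.96).

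The make-up of the set was compared as the share of each gene in the summed CPM per kb of the 8 genes, a quantity that does not depend on the scaling between libraries. The sum itself was 18.2 CPM per kb in ES, 137 (HB), 242 ± 72.9 (HE1), 236 in HE2 and 165 (HP). In ES, Ets2 (32.8%) and Etv6 (29.3%) made up most of a small sum. In HB, Etv2 alone held 43.4% ± 2.77 and Fli1 followed with 14.1%. In HE1 the Etv2 share was 1.93% ± 0.99, and Ets1 (25.0% ± 3.30) and Fli1 (21.5% ± 2.08) led, without standing apart from each other. In HE2 Fli1 led in both libraries (22.2% and 24.3%), and the next gene differed: Ets2 (17.6%) in replicate 1, ahead of Ets1 at 16.2% and Etv6 at 14.8%, and Etv6 (22.6%) in replicate 2, ahead of Ets2 at 15.3%. The leaders in HP were Etv6 (26.8%) and Fli1 (24.3%). Without division by length the Etv2 share in HB was 12.8%, since Etv2 has the shortest exon length of the 8.

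**Figure D3:**
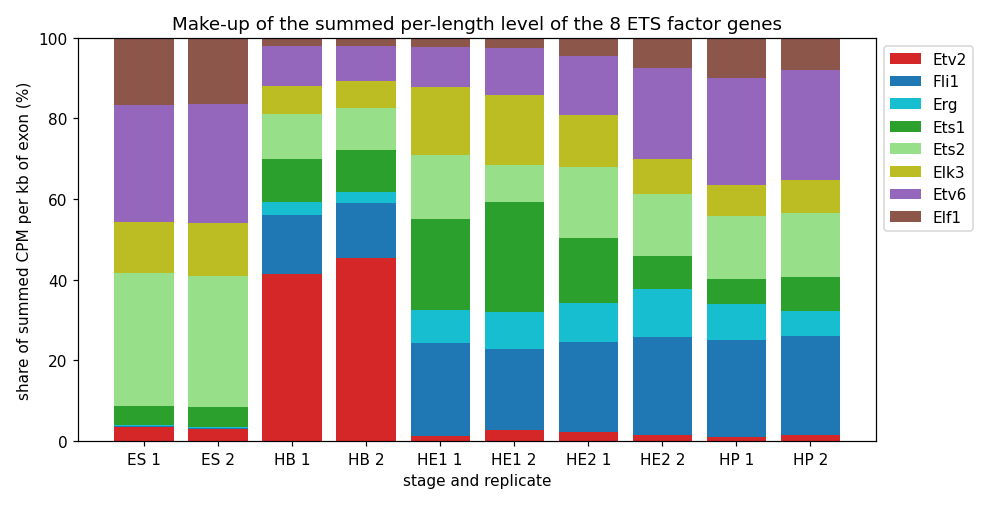
Share of each gene in the summed CPM per kb of exon of the 8 genes, as stacked bars for each of the 10 libraries. Etv2 takes 41.5% and 45.4% of the HB bars and under 4% of every other bar, and Ets1 is widest in HE1.

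Measured against Etv2 in the same library, Fli1 per kb was 0.354 and 0.300 times Etv2 (HB), 18.7 and 7.64 times in HE1, and 23.0 and 17.2 times in HP. Ets1 went from 0.254 and 0.231 times in HB to 18.4 and 10.4 times in HE1. Every one of the 7 other genes was below Etv2 in both HB libraries. In HE1 all were above it, except Elf1 in replicate 2, at 0.960 times.

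The 18 other ETS genes were read to see how much of the family these 8 make up. Per kb of exon the 8 members held 8.64% of the summed level of the 26 family genes in ES, 56.2% (HB), 71.1% (HE1), 66.9% in HE2 and 57.7% (HP). Of the 17 others that were tested (Elf5 was not), 3 rose and 3 fell from ES to HB, 2 rose and 2 fell from HB to HE1, and 2 rose and 2 fell from HE1 to HE2. Their median log2 fold changes were -0.08, 0.25 and -0.69, with Spic at its bound in the first and left out of the others, where it was at or under the floor. Etv5, a PEA3-group effector of FGF signaling, was at 343 CPM in ES, 89.2 (HB), 19.8 (HE1), 6.60 in HE2 and 4.26 (HP), and its falls were called at each step up to HE2 (log2 fold changes -1.94, -2.17 and -1.59). Spi1, which encodes the myeloid factor PU.1, had 2.16 CPM in HE1 and 46.1 ± 28.0 (HE2), a log2 rise of 4.40 (adjusted p = 0.000692). Elf4, a relative of Elf1, also rose, from 17.3 CPM in HB to 42.1 in HE1 and 120 ± 38.6 (HE2). Spic fell from 2.54 and 2.93 CPM in ES to 0 counts in both HB libraries. From HE1 to HP, 2 of the 17 rose and 7 fell, and from HB to HP 3 rose and 5 fell. Without HE1 replicate 1 the falls were 4 from HE1 to HE2 and 5 from HE1 to HP, and without HE1 replicate 2 they were 0 and 4, with Etv5 at -0.87 (adjusted p = 0.285) from HE1 to HE2. The rises of Spi1 and Elf4 from HE1 to HE2 were called whichever HE1 library was left out.

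**Figure D4:**
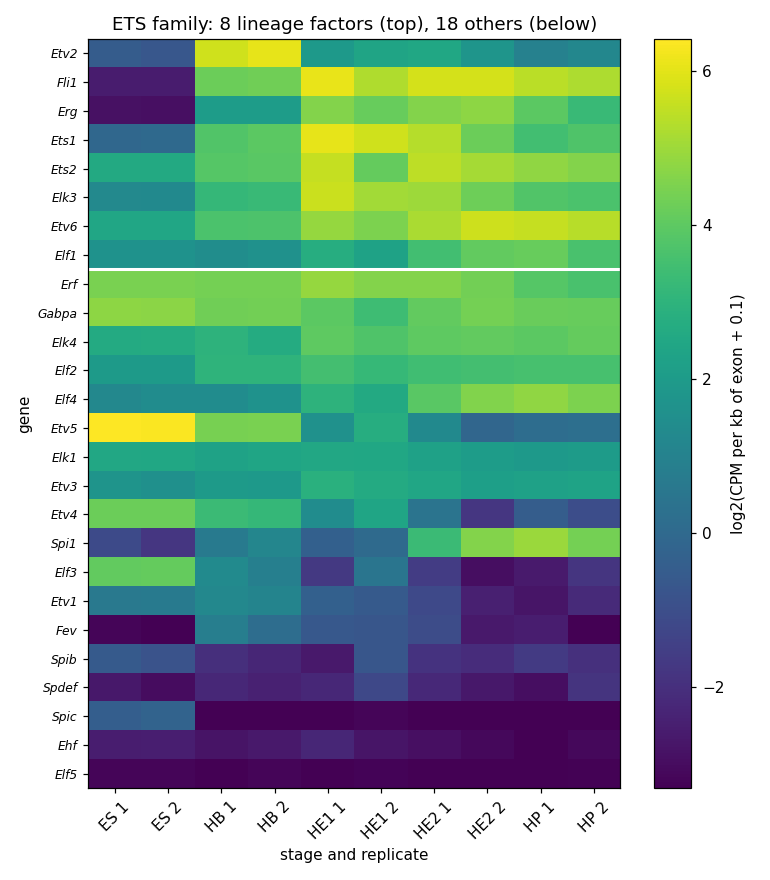
Level of all 26 ETS family genes as log2 of CPM per kb of exon plus 0.1 (color), with libraries in columns, the 8 members above the white line and the 18 others below it in order of their mean. Etv5 is brightest in ES and fades from there, Etv2 is brightest in HB, Elf4 brightens from HE1 and Spi1 from HE2.

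Of 6 mesodermal regulators that act upstream of or beside Etv2, 5 rose and 1 fell from ES to HB (median log2 fold change 4.20), and from HB to HE1 none rose and 3 fell (median -0.78). Mesp1, the early mesoderm bHLH factor, was at 0.128 CPM in ES, 76.5 ± 2.67 in HB and 0.125 (HE1), so that like Etv2 it was high in HB alone of the 5 stages. T (brachyury) fell by 5.46 and Foxf1 by 1.89 on the log2 scale from HB to HE1. Ovol2 was the gene that fell from ES to HB. From HE1 to HE2 2 more calls were lower and none higher, and from HE1 to HP 3 were lower. Without HE1 replicate 2, Foxf1 was not called from HB to HE1 (-1.67, adjusted p = 0.0634) and 0 of the 6 were called from HE1 to HE2, and without HE1 replicate 1 the second count was 3. Either omission left 2 lower from HE1 to HP.

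Known endothelial and blood targets of ETV2 did not follow Etv2 down. Of 20, 16 rose and 1 fell from ES to HB (median log2 fold change 4.10), and 14 rose and none fell from HB to HE1 (median 1.78), while Etv2 itself fell 13.8-fold. The list holds Kdr and Tek, which encode FLK1 and TIE2. HB was sorted as FLK1+, HE1 and HE2 as TIE2+, and HP as TIE2-. The rise of Kdr in HB and that of Tek in HE1 are therefore not independent of the sort. Nor is the fall of Tek from HE1 to HP (429 to 62.8 CPM). The part of the sort in these changes, and in those of the other endothelial genes, was not tested. In HB the largest rises were in Kdr (log2 8.77), the VEGF receptor, Lmo2 (7.18), a bridging factor of blood complexes, and Cdh5 (7.15), VE-cadherin. In HE1 they were in Emcn (5.15), Pecam1 (4.10) and Robo4 (3.82), all endothelial surface proteins. From HE1 to HE2, 2 rose (Lyl1 and Tal1, blood bHLH factors) and 2 fell (Egfl7 and Nfatc1), with a median of -0.85. From HE1 to HP, 16 fell and 2 rose, with a median of -2.70 against -0.02 for all genes, led by Sox7 (-4.08), Emcn (-4.05) and Robo4 (-3.98). Without 1 or the other HE1 library, 12 rose from HB to HE1. From HE1 to HP, 3 rose and 15 fell without HE1 replicate 1, and 2 rose and 16 fell without HE1 replicate 2. Between HE1 and HE2, 3 rose and 1 fell without HE1 replicate 1, and 0 rose and 2 fell without HE1 replicate 2. Lmo2 was called lower from HB to HE1 without HE1 replicate 1 (-1.19). In HP against HB 4 were higher and 4 lower, and in HP against HE2 no gene of this or any other list was called. The list shares 4 genes with the endothelial markers and 4 with the partner list below.

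The 5 partners that bind with FLI1 and ERG in blood progenitors, Tal1, Lyl1, Lmo2, Gata2 and Runx1, all rose from ES to HB (median log2 fold change 4.83), in the stage where Fli1 and Erg came on. From HB to HE1 only Lyl1 was called, as higher, and the median was -0.10, whereas Fli1 and Erg rose. From HE1 to HE2 Runx1 (log2 fold change 2.87; 55.5 ± 4.43 to 407 ± 158 CPM), Lyl1 (2.04) and Tal1 (1.15) rose, whereas Fli1 and Erg were not called. The same 3 partners were called higher in HP against HE1, whichever HE1 library was left out, but Lmo2 was called higher too without HE1 replicate 1 (1.32, adjusted p = 0.00237), and Gata2 was called lower without HE1 replicate 2 (-1.14, adjusted p = 0.00678). Runx1 alone was called from HE1 to HE2 without HE1 replicate 2, and Lmo2 (1.21) joined the 3 without HE1 replicate 1. Lyl1 was not called from HB to HE1 without HE1 replicate 1 (1.02, adjusted p = 0.0604). Whether partners and members differed in these steps was not tested.

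Ets1 and Elk3 had their highest means in HE1, where the mean endothelial marker sum was highest. That sum was however higher in HE2 replicate 1 than in HE1 replicate 2, and 0 of 5 endothelial markers were called in HE2 against HE1. Etv6 and Elf1 were high with the blood progenitor markers in HE2 and HP, while Fli1, Erg and Ets2 had their highest means in HE2. The summed level of 5 endothelial markers was 3487 and 2027 CPM in HE1, 2269 and 1364 in HE2 and 700 and 691 (HP), and that of 5 blood progenitor markers was 84.0 and 71.8 CPM in HE1, 490 and 896 in HE2 and 993 and 826 (HP). HE2 replicate 2, with fewer endothelial and more blood progenitor transcripts than HE2 replicate 1, also had less Ets1 and Elk3 and more Etv6 and Elf1. Fewer cells of a type and less RNA per cell cannot be told apart in these bulk libraries. Markers of other cells also rose from HB to HE1: 4 of 5 red cell, 3 of 4 smooth muscle and 2 of 4 macrophage markers were called higher and none lower. Their median log2 fold changes were 5.51, 3.45 and 3.68. The red cell and smooth muscle counts moved without HE1 replicate 2. Cnn1 (smooth muscle) stood at 2.43 without HE1 replicate 1 and 1.21 without HE1 replicate 2, and Alas2 (red cell) at 0.22 and 1.28. Red cell markers were present in all 3 fractions (537 and 260 CPM in HE1, 2182 and 1659 (HE2), 4670 and 2376 in HP), as were smooth muscle markers (362 to 939 CPM), while 4 macrophage markers summed to 37.4 CPM or less and 4 megakaryocyte markers to 11.4 CPM or less in every library. Cardiac mesoderm markers summed to 315 and 376 CPM in HB, 263 and 321 in HE1 and 111 or less later. These markers moved in both directions from HB to HE1: 2 of 5 were called higher and 1 lower (median log2 fold change -0.33). Their part in the members' values was not tested.

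The loci of the divergent pairs were read for their neighbors. Fli1 and Ets1 differed in the later stages: per kb, Ets1 was 0.985 and 1.36 times Fli1 (HE1), and 0.256 and 0.349 times in HP. Ets2 was 3.56 and 3.67 times Erg per kb in HB, and 1.94 and 0.991 times in HE1. Kcnj5, a potassium channel gene whose start lies 199 kb beyond that of Fli1, was at 0.107 CPM in ES, 19.5 (HB), 8.63 (HE1), 55.8 in HE2 and 63.6 (HP), and it was called lower from HB to HE1 (log2 fold change -1.19) and higher from HE1 to HE2 (2.70), whereas Fli1 rose in the first of these steps and was not called in the second. Without HE1 replicate 2 the fall of Kcnj5 was not called (-0.61, adjusted p = 0.183) and its rise was (2.13).

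Because the RNA was nuclear, 5 short annotated genes that lie between the exons of Fli1 on its own strand could be read beside it. They share no exon base with Fli1, and 4 of them are single-exon TEC genes (Gm38292, Gm38346, Gm37474 and Gm37082), the other being the snRNA gene Gm22060. The 4 summed to 0 counts in both ES libraries, 8.93 and 5.04 CPM in HB, 46.1 and 85.4 (HE1), 23.2 and 21.8 (HE2), and 13.2 and 33.5 (HP). The sum was thus highest in HE1, in both libraries, whereas Fli1 itself had its highest mean in HE2. Their summed level per kb, over 9425 bases, was 5.05% and 2.69% of the Fli1 level per kb (HB), 7.24% and 23.7% (HE1), 4.49% and 4.23% (HE2), and 3.30% and 9.50% (HP). From HE1 to HE2 only Gm38346 of the 5 was called (log2 fold change -1.71, SE 0.47; adjusted p = 0.0431), where Fli1 stood at 0.05, and without HE1 replicate 2 none of the 5 was, with Gm38346 at -1.11 (adjusted p = 0.249). Without HE1 replicate 1, Gm38346 (-2.10), Gm37474 (-1.94) and Gm37082 (-1.85) were called lower. Inside Etv6 lie 2 TEC genes, Gm43982 and Gm43984, and neither was called from HE1 to HE2 (adjusted p = 0.176 and 0.174), though Gm43984 was called lower without HE1 replicate 1 (-1.70, adjusted p = 0.0407). Their summed level per kb was 5.95% and 6.49% of that of Etv6 in ES, 9.51% and 4.53% (HB), 7.11% and 27.4% (HE1), 4.72% and 3.74% (HE2), and 2.77% and 7.90% (HP), so that only HE1 replicate 2 stood above all other libraries. HE1 replicate 2 and HP replicate 2, which had the higher percentages of their stages for both genes, also had the larger shares of counts in all TEC genes (0.627% against 0.316%, and 0.389% against 0.188%). Whether these reads come from unspliced Fli1 and Etv6 transcripts was not tested.

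**Figure D5:**
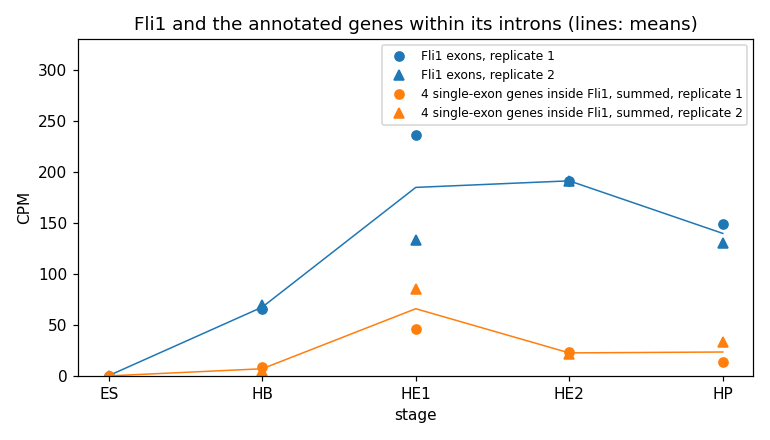
CPM, without division by length, of Fli1 and of the summed 4 single-exon genes between its exons, by stage, for comparing stages and not the levels of the 2 lines, with points for libraries and lines through the means. Both are near 0 in ES, and the intronic sum is highest in HE1, at 46.1 and 85.4 CPM, while Fli1 has its highest mean in HE2.

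Over the 10 libraries, Pearson r of log2 CPM between members ran from -0.264 for Etv2 and Elf1 to 0.991 for Fli1 and Erg. Ets1 and Elk3 stood at 0.975. Pairs with unlike profiles over the stages were also high, such as Erg and Ets1 (0.942), Ets2 and Etv6 (0.917) and Erg and Etv6 (0.913). The tested genes most like each member were Slc4a4, Bmp5 and Gm45889 for Etv2 (r from 0.985 to 0.986), Zeb2, Pear1 and Ulk2 for Fli1, Ulk2, Calcrl and Mospd1 for Erg, and Cblb, Hoxb4 and Shank3 for Ets1. For Ets2 they were Zfp467, Wipf1 and Arl2bp, for Elk3 Cdc42ep1, Pam and Serpinh1, for Etv6 Arhgap18, Pik3r6 and Ripor1, and for Elf1 Pxn, Dnajb14 and Ogdh. Libraries of a stage share culture and sort, so these r values describe 5 stages and not 10 independent points. Elk3 and Elf1 overlap genes on the opposite strand, Cdk17 by 316 bases and Wbp4 by 327 bases of exon, and the counting used strand.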

How the data were processed

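Nuclear RNA was rRNA-depleted, and directional libraries were made and sequenced. Per the labels and the file headers, the authors trimmed reads with Trimmomatic, aligned them with HISAT2 2.2.1 and counted them over exons with featureCounts 2.0.1 (paired, reverse-stranded, reads overlapping several genes counted for each) against Ensembl 102 on GRCm38 (mm10). The deposited counts per gene and library, not normalized, were the input to every test. The authors also deposited a matrix of CPM averaged per stage, treated here as a score because its ES column sums to more than CPM allows. It was used to find the members and as an alternative for shares.

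Counts were kept by edgeR's filterByExpr, scaled by TMM and fitted with edgeR 4.0.16 (quasi-likelihood F test, 1 coefficient per stage, all 10 libraries, 5 residual degrees of freedom) in R 4.3.3, with p-values adjusted by Benjamini-Hochberg over 22596 genes. Standard errors are the absolute log2 fold change divided by the square root of F. limma 3.58.1 and DESeq2 1.42.0 served as alternatives, with other scalings, filters, a replicate block and each library left out. The fit was also run on simulated counts with known changes, as a check of the code and not of the results given here. The labels give 2 libraries per stage, which the study describes as biologically independent, and p-values measure the spread between them. Likeness used Pearson r of log2 CPM with a prior count of 2. Each list contributed its counts and at most the 3 called genes with the largest change per comparison; all members, their 3 most alike genes, genes overlapping a member, and neighbors within 200 kb of Ets1, Fli1, Erg or Ets2 were also eligible to be named. Nfatc1, Gata2, Cdk17, Wbp4 and the genes named to complete a list or a count were named after their values were seen, as were the comparisons of genes between the exons of Fli1 and Etv6 and the promoter search. The members and lists were chosen with earlier results of these data known. Promoter windows are from RefSeq (GRCm38.p6).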

Additional observations from a re-analysis of the deposited data

How the results depend on the processing

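Of 864 alternative values for the 48 log2 fold changes of members, 797 kept their direction and side of the threshold, 36 lost a call, 16 gained one and 15 changed sign, all of these in uncalled differences. The calls in HB against ES numbered 7 in every alternative except at a 4-fold limit, where 4 remained above it. That limit left 4 members in HE1 against HB, 0 in HE2 against HE1, 1 in HP against HE1 and 2 in HP against HB. Leaving out 1 library gave 4 to 8 calls in HE1 against HB, 0 to 4 in HE2 against HE1 and 0 to 3 in HP against HE2. HE2 against HE1 had 1 call without a filter on low counts, 1 with only the 4 libraries compared and 1 with the replicate block. HP against HE2 had 3 calls with DESeq2 and 3 without the filter. Sign changes between HE1 and HE2 were in Etv2 (-0.030 with limma-voom, -0.0030 with DESeq2, -0.099 with total counts, -0.0087 with the 4 libraries, -0.39 to 0.35 with 1 library left out), Fli1 (-0.014 with total counts, -0.31 to 0.54 with 1 left out) and Ets2 (-0.26 to 1.18). In HP against HE2 they were in Etv6 (-0.21 to 0.27) and Elf1 (-0.20 to 0.46), and in HP against HE1 in Fli1 (-0.76 to 0.092) and Ets2 (-0.84 to 0.61). The cause was not tested. The Etv2 share in HB was 12.8% without division by length and 24.4% of all ETS genes, and in HE1 0.366% without division. Replicate numbers were not treated as pairs: differences between same-numbered libraries correlated across genes at -0.316 to 0.213. The replicate block changed the Ets1 call in HE2 against HE1 and no other member call. Exchanging the HE1 and HP numbers, an alternative chosen after seeing the data, gave 1 call in HP against HE2. Leaving 1 HE1 library out of the list counts was also chosen after seeing the data.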
